A study of Arabidopsis thaliana with 6 samples.

Results

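A set of 265 probe sets, of 22746 left after the controls were taken out, read higher in Arabidopsis thaliana seedlings of the array titled glc than on each of the arrays titled OMG, DOG, man and wat. They were chosen from the signals themselves. A member had a glc signal of at least 60 and at least 1.5 times the highest of OMG, DOG, man and wat, and a zer signal below 1.5 times glc. Another 4 probe sets met these cuts and were left out by name: XTH19, NRPA1, AT4G04940 and AT2G34357. No probe set with a symbol beginning CYP, UGT or GSTU met them, so that exclusion removed 0. The values that chose the members are given here as a description, and no test can be made with them.

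The study hybridised labelled total RNA of whole Col-0 seedlings to 6 arrays, titled glc, zer, OMG, DOG, man and wat, with 1 array per group. Its title asks for genes that respond to non-metabolised glucose analogs and for glucose sensing that is independent of hexokinase. All seedlings were wild type, at the same growth stage, and had grown under constant lighting on agar with Murashige and Skoog salts at reduced strength. The titles alone separate the groups: the description of every sample enters "none" for treatment, and no dose and no duration is given. The name glc is read here as glucose. A related publication used the analogs 3-O-methylglucose and 6-deoxyglucose, and from knowledge of it OMG and DOG are taken to be those. The names zer, man and wat are not spelled out in the labels and are kept as they stand. With 1 array per group there is no replicate, no test and no standard error, and each difference below compares single arrays.

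Glucose is both fuel and signal in plants. Sensing through hexokinase, and through the opposed kinases TOR and SnRK1, which respond to sugar and energy supply, sets the rate of growth. Cells that grow faster make more ribosomes, which takes transcription of ribosomal RNA by RNA polymerase I and its processing in the nucleolus, and cells that divide make histones while they copy their DNA.

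The members formed a group of modest folds over a wide range of signals. Their glc signal ran from 60.5 to 1679.8 with a median of 176.0. The median over the members was 111.5 on zer, 92.6 on OMG, 93.8 on DOG, 89.8 on man and 91.2 on wat. The arrays OMG, DOG, man and wat thus lay close together, with zer a little above them. In whole seedlings, more RNA per cell and more cells of a type cannot be told apart. The fold of glc over the highest of the 4 arrays had a median of 1.62, an upper quartile of 1.79 and a maximum of 2.59. It was at least 1.8 for 61 members and at least 2 for 25. Of the 9337 probe sets with a glc signal of 60 or more, 2.88% met the cut of 1.5 times and 0.289% that of 2 times, before names were left out. These shares were set by the rule, and nothing is read from them.

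**Figure D1:**
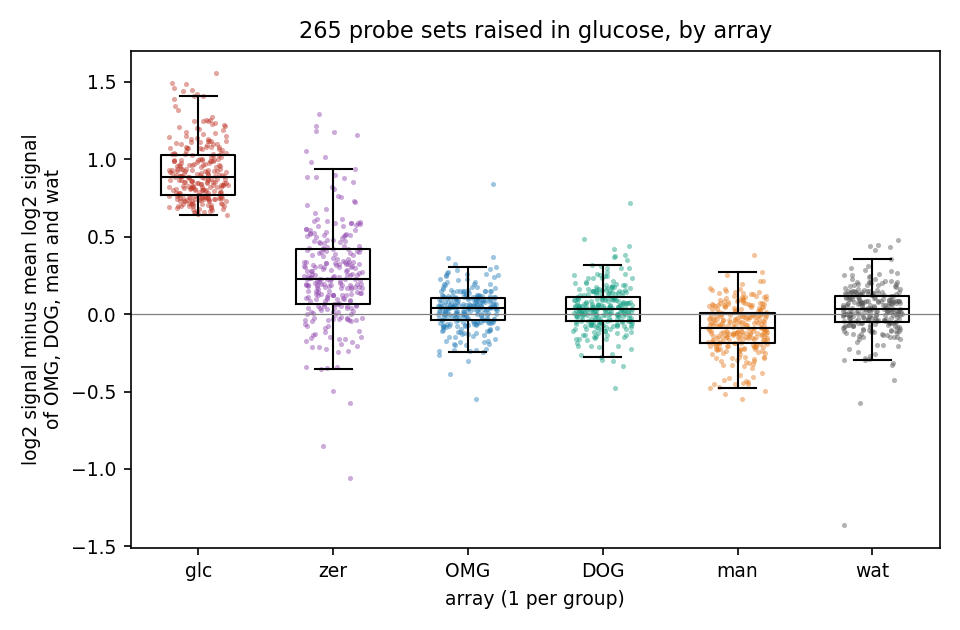
Each point is 1 of the 265 probe sets on 1 array, plotted as its log2 signal minus its mean log2 signal over OMG, DOG, man and wat; boxes span the quartiles with the median as a line, and whiskers reach 1.5 times the box. The glc points all lie above 0 because the rule chose them so, zer lies between, and man lies lowest.

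Members were spread over bright and dim transcripts alike. There were 60 with a glc signal from 60 to under 100, 169 from 100 to under 500 and 36 at 500 or more, which is 2.11%, 3.23% and 2.85% of all probe sets in those ranges. The median fold over the highest of the 4 arrays was 1.64 in the dim class, 1.62 in the middle class and 1.65 in the bright class. The 4 comparison arrays lay closer together for bright members: the ratio of the highest to the lowest of OMG, DOG, man and wat had a median of 1.18 there, against 1.31 in the dim class. These arrays are different groups, so the ratio is no measure of replicate error. Over all members that ratio had a median of 1.23, and over all probe sets with a glc signal of 60 or more it was 1.20. In 13 members at least 1 of the 4 arrays read below its 40th percentile, a level between 26.1 and 28.8 over the 6 arrays. Raising such signals to that level left all 265 members in place.

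The same cut gave far fewer probe sets on OMG, DOG, man and wat, but not on zer. Set against 3 of OMG, DOG, man and wat at a time, glc had 292 to 347 probe sets at 60 or more that lay at least 1.5-fold above the highest. The zer array had 220 to 246. The man array, set against the other 3, had 34, wat 14, DOG 10 and OMG 3. At 2-fold glc had 31 to 41 and zer 46 to 59, while man had 13, DOG 1 and OMG and wat 0. So zer gave fewer probe sets than glc at 1.5-fold and more at 2-fold.

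**Figure D2:**
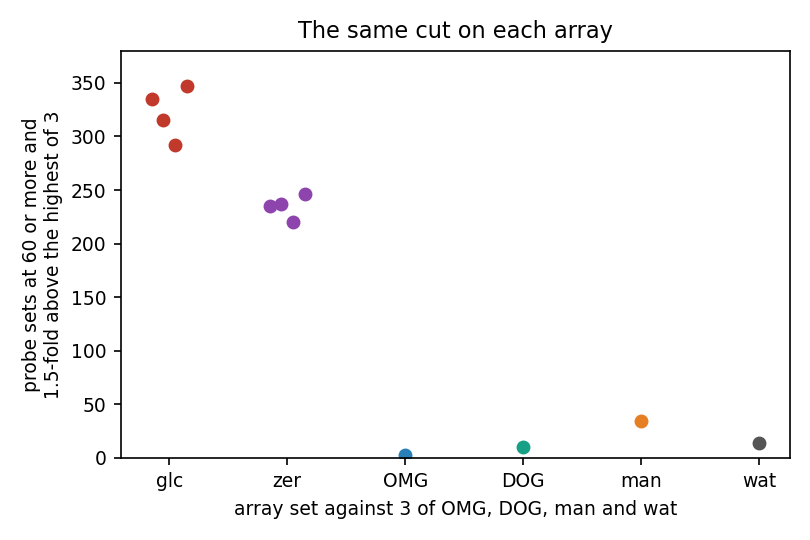
Each point counts the probe sets with a signal of 60 or more on the array named below it and at least 1.5-fold above the highest of 3 of OMG, DOG, man and wat; glc and zer have 4 points, 1 for each array left out. The glc points run from 292 to 347 and the zer points from 220 to 246, and the other arrays lie between 3 and 34.

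Names were available for the larger part of the members. A single gene was named for 146, which are 146 different genes, or 55.1% of members beside 59.4% of all probe sets. Another 8 listed several genes, and 111 were unnamed here. Of the 146 genes, 10 carried a symbol other than a locus identifier and 136 had only a locus as their symbol. Words in the names of the reference gene table sorted few of these into roles: among probe sets with a glc signal of 60 or more, of which 2.88% met the cuts over the whole array, 2 of 3 for pentatricopeptide repeat proteins were members. The lists for ribosome biogenesis (1 probe set at that signal), chaperones (3), cell wall (19), transporters (13) and chromatin (10) held 1 member each. The other 9 of the 15 lists held 0. Among them were RNA polymerases and transcription (12 probe sets), kinases and receptors (7), nucleotide and amino acid synthesis (14) and redox and defence (24). The words missed the member NRPB9B, a subunit of RNA polymerases described below, so the 0 for RNA polymerases does not show their absence. The list for ribosomal proteins matched 0 probe sets of the whole array. Its 0 therefore does not show that the members lack ribosomal protein genes. Most of the 146 genes have no descriptive name for the words to match, so these counts say little of the roles of the members as a whole.

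Of 21 loci listed for ribosome assembly, 8 were matched to a probe set named for them alone, and 7 of these had a glc signal of 60 or more. The rest were not matched by name, which does not show that the array lacks them. Among the 7 were 4 members, where 2.88% of all probe sets at that signal met the cuts. The list was drawn up with earlier results of these data known, so nothing is read from this share. AT5G14520 is PES, the Arabidopsis pescadillo, a nucleolar protein needed to process the RNA of the large ribosomal subunit. PES read 368.5 on glc, 242.7 on zer, 236.8 on OMG, 232.5 on DOG, 214.1 on man and 226.9 on wat. Its 5 readings other than glc stayed within a narrow band well below glc. YAO, a nucleolar WD40 repeat protein required in the embryo sac and the embryo, read 118.4 on glc, 68.0 on zer, 75.9 on OMG, 65.3 on DOG, 57.6 on man and 75.1 on wat. AT2G40360 read 392.2 on glc, and its other readings were 230.9 (zer), 238.1 (OMG), 242.1 (DOG), 206.6 (man) and 225.8 (wat). AT3G05060 read 248.7 on glc, 149.3 on zer, 141.3 on OMG, 143.6 on DOG, 101.7 on man and 103.2 on wat. Unlike the other 3, it split the other arrays, with man and wat below zer, OMG and DOG.

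The 4 other matched loci of that list fell short of the cut by different amounts. NRPA2, the second-largest subunit of RNA polymerase I, read 240.4 on glc and between 150.9 and 163.6 on the other arrays, a fold of 1.47 over the highest of OMG, DOG, man and wat. AT5G41190 read 170.4 on glc and had a fold of 1.27. PRH75, a nucleolar DEAD box RNA helicase, read 165.6 on glc, 156.5 on zer and 109.5 to 138.8 on the rest, a fold of 1.19. AT3G09720 read 37.7 on glc and 38.6 on DOG, under the signal minimum. So the 3 that reached the signal minimum without being members read above the highest of the 4 arrays, as did 40.3% of all probe sets with a glc signal of 60 or more. NRPA1, the partner of NRPA2 in the catalytic core of that polymerase, met the cuts with 69.6 on glc against 27.5 to 43.1 on the other 5 arrays, and is left out by name.

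RBL, or REBELOTE, is known for ending the activity of the floral meristem and belongs to the Noc2 family, which in yeast acts in ribosome assembly. RBL read 131.7 on glc, 57.7 on zer, 71.1 on OMG, 64.8 on DOG, 58.2 on man and 56.3 on wat. Here zer lay with OMG, DOG, man and wat, and OMG was the highest of these. NRPB9B, a small subunit shared by the RNA polymerases that make messenger and silencing RNAs, read 77.0 on glc, 57.7 on zer, 38.1 on OMG, 38.7 on DOG, 39.0 on man and 49.0 on wat. Its zer signal lay between glc and the rest.

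Histone genes also reached the set, mostly through probe sets that cannot be assigned to 1 gene. HTB2, a histone H2B gene, read 180.9 on glc, 116.0 on zer, 87.2 on OMG, 91.8 on DOG, 108.6 on man and 107.3 on wat. Of the 8 members that list several genes, 3 list the same 5 genes, all called histone 3.1 in the reference table. Those 3 read 292.9, 183.2 and 90.2 on glc, with folds of 1.51, 1.62 and 1.66 over the highest of the 4 arrays. Another 2 list the same 8 genes, of which HIS4, for histone H4, is named; they read 175.2 and 130.0 on glc, with folds of 2.04 and 1.59. Because these probe sets share their target genes, they do not count as separate genes.

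The other histone probe sets with a glc signal of 60 or more also read higher on glc than on OMG, DOG, man and wat. In all, 16 probe sets list at least 1 gene named as a core histone or a variant of one in the reference table, and 14 of them had a glc signal of 60 or more. Of these, 6 were members, where 2.88% of all probe sets at that signal met the cuts. The rule placed these 6 above the highest of OMG, DOG, man and wat. The other 8 were below the cut but also above that reading, with folds from 1.14 to 1.45, where 40.3% of all probe sets at that signal were above it. The 14 probe sets stand for only 6 different gene lists. On zer, 12 of the 14 were above the highest of the 4 arrays, as were 33.5% of all probe sets at that signal. Picking the 6 members for low readings on those 4 arrays favoured this. HTB1 read 242.0 on glc, 215.3 on zer, 152.9 on OMG, 163.9 on DOG, 123.1 on man and 179.2 on wat. HTB4 differed less, with 404.1 on glc, 348.4 on zer and 319.5 to 353.9 on the other 4. The centromeric histone gene HTR12 read 26.5 on both glc and zer, and MGH3, a histone gene of pollen, 5.0 or less on every array. This list was put together after the values were seen, so nothing is read from its counts.

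**Figure D3:**
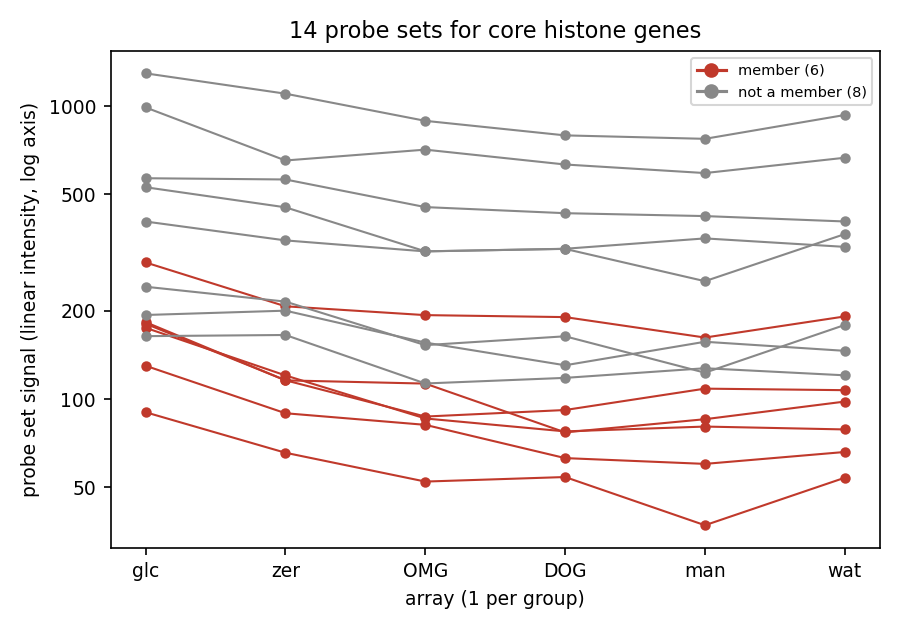
Each line is 1 of the 14 histone probe sets with a glc signal of 60 or more, drawn over the 6 arrays on a log axis of linear signal; lines only join readings of 1 probe set. Members are red and the 8 others grey, and in all 14 the glc reading stands above OMG, DOG, man and wat.

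Organelle proteins were read for a few members. PPR596 and PPR336 belong to the pentatricopeptide repeat family, proteins that bind RNA in mitochondria and chloroplasts. PPR596 read 171.8 on glc, 97.2 on zer, 84.6 on OMG, 85.6 on DOG, 79.1 on man and 92.3 on wat. PPR336 read 148.8 on glc, 103.6 on zer, 81.9 on OMG, 60.4 on DOG, 74.6 on man and 77.3 on wat, so that DOG was lowest. Cpn60beta2, a subunit of the chaperonin that folds proteins in the chloroplast, was among the brightest members: 1066.7 on glc, 766.0 on zer, 615.9 on OMG, 615.6 on DOG, 523.6 on man and 681.5 on wat. AT4G38100, called CURT1D in the reference table for a protein that bends thylakoid membranes, read 149.2 on glc and 63.9 to 73.9 on the other 5 arrays, a fold of 2.03 over the highest of the 4. It and F6'H1 below were picked out for their names after the values were seen.

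Some of the named genes belong to the cell wall, transport or secondary metabolism, and members known by locus alone were not sorted this way. ATPMEPCRB, a pectin methylesterase that removes methyl groups from wall pectin, read 143.9 on glc, 79.8 on zer, 58.1 on OMG, 66.6 on DOG, 88.7 on man and 63.1 on wat, and here man was the next highest. CHX16, a cation/proton exchanger, read 66.5 on glc, 36.9 on zer, 30.2 on OMG, 34.4 on DOG, 22.9 on man and 26.0 on wat, these last being under the 40th percentile of their arrays. PRA1.B4, a prenylated Rab acceptor of the secretory pathway, read 201.2 on glc, 130.6 on zer, 109.9 on OMG, 100.2 on DOG, 81.7 on man and 115.3 on wat. AT3G13610 is F6'H1, the hydroxylase that makes the precursor of scopoletin and other coumarins. It read 123.6 on glc, 100.5 on zer, 75.9 on OMG, 82.2 on DOG, 51.3 on man and 75.3 on wat, so zer stood close to glc and man well below the rest.

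The largest folds belonged to genes known here by locus or to unnamed probe sets. AT1G15250 read 132.1 on glc, 74.1 on zer, 41.9 on OMG, 58.4 on DOG, 45.5 on man and 53.3 on wat, 2.26-fold above the highest of the 4. AT2G43620 read 686.9 on glc, 314.7 on zer, 300.7 on OMG, 308.7 on DOG, 270.5 on man and 215.8 on wat. Its wat reading was the lowest, so its fold over wat (3.18) was larger than that over the highest of the 4 (2.23). AT3G25940 had the same shape at a lower level, with 97.1 on glc, 42.7 to 47.3 on zer, OMG, DOG and man, and 33.7 on wat. AT4G01700 (141.9 on glc, 55.6 to 65.3 elsewhere) had a fold of 2.17. AT4G34950 (472.7 on glc, 299.0 on zer and 185.8 to 220.7 on the other 4) had one of 2.14. AT2G20450 and AT4G30800 had folds of 2.07 each, with glc signals of 419.7 and 316.4. In each of these genes the 4 arrays OMG, DOG, man and wat lay below glc, as the rule required. Among unnamed probe sets, 258218_at had the largest fold of all members (2.59), with 250.6 on glc, 160.7 on zer and 80.8 to 96.9 on the rest. By signal, AT1G18540 was the brightest member, at 1679.8 on glc, 1209.3 on zer, 1117.3 on OMG, 1074.1 on DOG, 1047.6 on man and 1080.2 on wat.

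**Figure D4:**
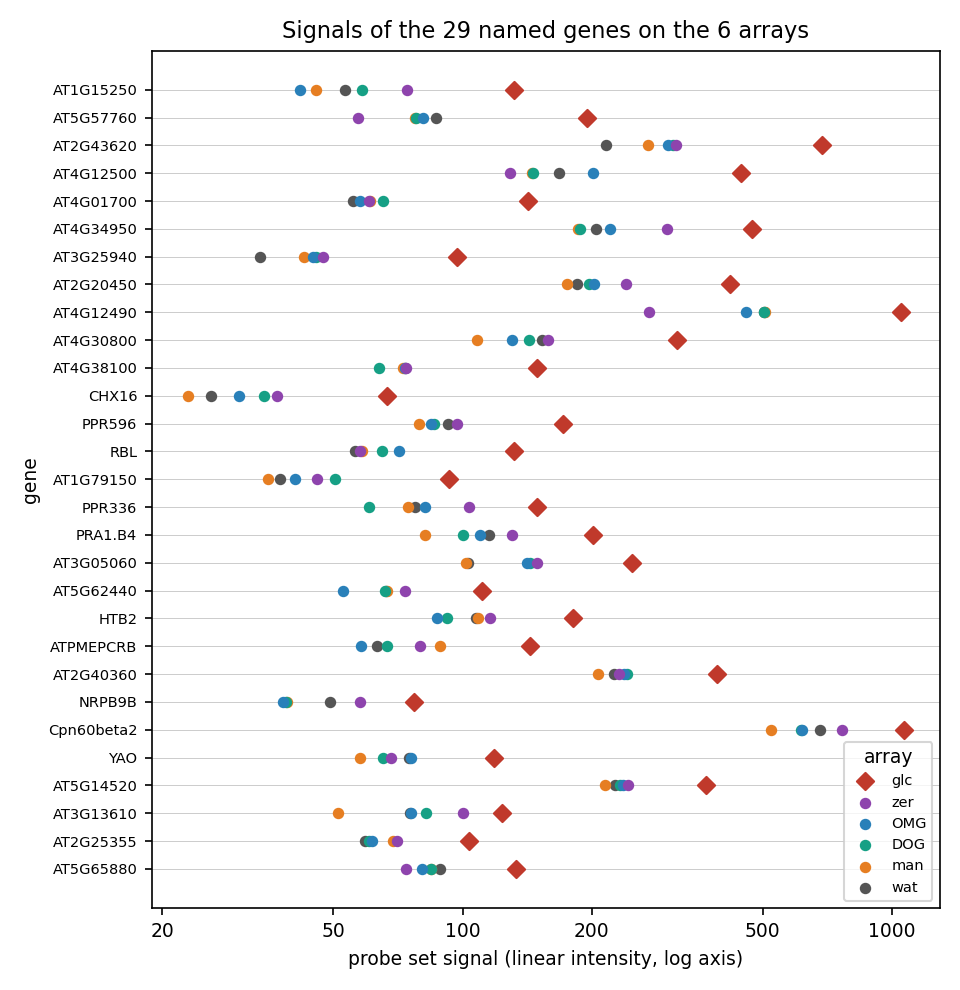
Signals of the 29 named genes on the 6 arrays, on a log axis, sorted from the largest fold of glc over the highest of OMG, DOG, man and wat (AT1G15250, 2.26) to the smallest (AT5G65880, 1.5). Red diamonds are glc; zer lies between glc and the other arrays for most genes, and left of them for AT5G57760, AT4G12500, AT4G12490 and AT5G65880.

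The rule held zer only below 1.5 times glc, so its place among the members was partly free. For 168 of the 265 members zer read above the highest of OMG, DOG, man and wat, which is true of 33.5% of probe sets with a glc signal of 60 or more. It lay within the range of the 4 for 77 members and below the lowest for 20, against 29% below the lowest over all such probe sets. Picking probe sets whose 4 comparison signals are low against glc also favours those in which zer lies above them, so this excess is not independent of the rule. On a log scale from the mean of the 4 arrays to glc, zer stood at 0.258 of the way in the median member, with quartiles at 0.0773 and 0.470. It was more than 0.5 of the way in 57 members and at or below the mean of the 4 in 46. The median log2 difference over the members was 0.66 for glc minus zer and 0.21 for zer minus wat, beside 0.00 and 0.01 over all probe sets compared. The glc signal was at least 1.5 times zer in 158 members, against 5.31% of probe sets with a glc signal of 60 or more. Picking probe sets for a high glc signal also favours glc over zer. The difference of 0.66 and the count of 158 are therefore not independent of the rule.

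In 16 members zer was itself at least 1.5-fold above the highest of the 4 arrays, against 1.47% of probe sets with a glc signal of 60 or more, and in 10 of them it was above glc. The named ones above glc were AT1G18980 (142.8 on glc, 175.1 on zer and 72.4 to 85.2 on the rest), AT2G22900 (69.9 on glc, 84.4 on zer), AT1G04680 (210.5 on glc, 214.6 on zer) and AT5G40830 (98.8 on glc, 100.8 on zer). AT5G02890, the other named gene of the 16, read 65.1 on glc and 62.9 on zer against 37.4 to 41.8. In these genes glc and zer lay near each other, and the cuts that picked the genes placed both above OMG, DOG, man and wat.

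At the other end were genes with their lowest reading on zer. AT4G12490 read 1048.4 on glc, 272.5 on zer, 457.5 on OMG, 502.7 on DOG, 507.5 on man and 504.6 on wat. AT4G12500 read 444.2 on glc, 128.8 on zer, 201.3 on OMG, 145.9 on DOG, 144.8 on man and 167.3 on wat. AT5G57760 read 194.4 on glc, 57.2 on zer, 80.8 on OMG, 77.8 on DOG, 77.5 on man and 86.9 on wat. These 3 were among the 10 named genes with the largest folds, yet zer stood on the far side of the other arrays. AT3G01800 had the lowest zer reading of all members, 15.8, with 65.7 on glc and 23.6 to 39.7 on the rest.

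**Figure D5:**
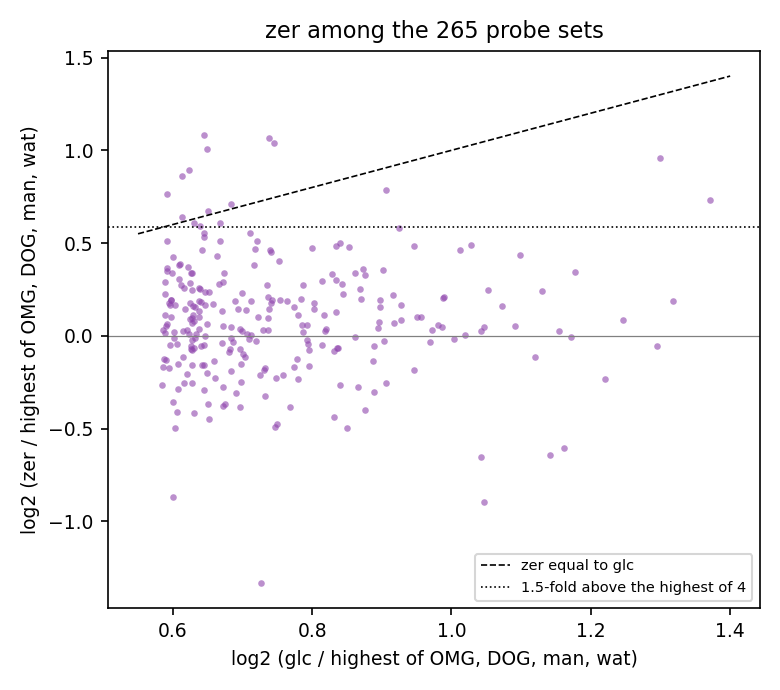
Each point is 1 of the 265 probe sets; the horizontal axis is the log2 ratio of glc to the highest of OMG, DOG, man and wat and the vertical axis that of zer to the same value. The 10 points above the dashed line read higher on zer than on glc, 16 lie on or above the dotted line, and 168 lie above 0 on the vertical axis.

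Some control ratios of RNA quality were also high on glc and zer. Actin control probe sets compare the 3′ with the 5′ end of the transcript, and their ratio grows when labelled RNA is incomplete. It was 6.41 on glc and 7.48 on zer, against 3.46 (DOG) to 4.66 (wat) on the other 4 arrays. A second actin pair gave 1.76 on glc and 1.86 on zer, against 1.55 to 1.72. Both ubiquitin pairs were higher on glc (2.73 and 1.85) and zer (2.84 and 1.96) than on the rest. The GAPDH pairs set only zer apart, at 1.38 and 1.16: on glc they gave 1.26 and 0.864, within the 1.21 to 1.35 and 0.838 to 0.944 of the other 4 arrays. The part of RNA quality in the readings of the members was not tested. The 3 root genes matched by name (of 4) summed to 3106.7 on glc and 2715.9 to 3392.7 on the other 5 arrays, a sum set by the bright PYK10. EXPA7 and EXPA18, expansins of root hairs, were highest on glc, at 46.0 against 28.4 to 43.4 and at 44.9 against 34.5 to 41.6. Both were dim, under the signal minimum of 60, with folds of only 1.06 and 1.08 over the highest of OMG, DOG, man and wat. The 2 leaf genes matched by name (of 4) summed to 4619.2 on glc and 4562.1 to 5565.9 on the others. LHCB4.2, of the light-harvesting complex, was lowest on glc, at 1489.7 against 1688.7 to 2256.2, and RCA, for Rubisco activase, read 3129.5 against 2776.9 to 3309.7. The part of tissue makeup in the readings of the members was not tested.

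The arrays OMG and DOG did not stand apart from wat over the members. The median log2 difference from wat was 0.01 for OMG and -0.01 for DOG, with 136 and 127 of 265 members above 0. Over all probe sets compared, 50.5% were above 0 for OMG and 50.3% for DOG. The differences from wat share the wat array and the rule capped them. The man array read lower, with a median of -0.13 against wat, 79 members above 0 and 186 below. Over all probe sets compared, the median of man minus wat was -0.02 and 47.4% were above 0. Among the 5 arrays other than glc, man was the lowest in 127 members, which is true of 27.7% of all probe sets with a glc signal of 60 or more. It was wat in 41 members (16.9% of all), DOG in 39 (13.8%) and OMG in 38 (12.3%). The zer array was lowest in 20 members (29% of all). That low count is not independent of the rule and leaves more members in which another array, man included, is lowest. The man array was at least 1.3-fold below each of OMG, DOG and wat in 15 members, against 1.63% of all such probe sets, and F6'H1 and AT1G04680 (210.5 on glc, 87.8 on man and 123.0 to 131.1 on OMG, DOG and wat) were among them. The wat array was lowest in that way in 3 (0.803% of all), DOG in 1 (0.493%) and OMG in 1 (0.418%). The cut of 1.3 was chosen after the values were seen. The gap below wat was widest for AT5G13520, with 65.8 on glc, 41.9 on OMG, 38.4 on DOG, 20.5 on man and 9.1 on wat. That gene's log2 difference of glc minus wat, 2.85, was the largest of all members and rests on a wat reading under the 40th percentile.

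Only 2 member genes had a second probe set named for them alone, and these second probe sets missed the cut. For AT5G62440 the member read 110.9 on glc, 73.6 on zer, 52.7 on OMG, 65.9 on DOG, 66.5 on man and 66.2 on wat. Its second probe set read 139.3 on glc, 89.4 on zer, 88.0 on OMG, 98.9 on DOG, 86.9 on man and 95.0 on wat, a fold of 1.41 over the highest of the 4 beside 1.67. For AT1G79150 the member read 93.2 on glc, 45.9 on zer, 40.8 on OMG, 50.4 on DOG, 35.3 on man and 37.6 on wat. The second read 108.3 on glc, 83.8 on zer, 87.8 on OMG, 85.1 on DOG, 73.3 on man and 81.6 on wat, a fold of 1.23 beside 1.85. In both genes glc was the highest of the 6 arrays in the second probe set too. The smaller fold of the second probe set was fixed by its having missed the cut, and nothing is read from it.

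Position and gene length gave little to set the members apart. Chromosome 3 held 35 of the 146 named genes, or 24%, against 20% of the 4830 named genes with a glc signal of 60 or more, and chromosome 1 held 33 (22.6% against 25.5%). The median gene length was 1939 bases for members and 2238 bases for those 4830. Of 949 pairs of neighbouring genes both read at that level, 63 included a member and 1 had members on both sides, AT4G05400 and YAO.

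The cut falls where folds lie densely. Just inside it were AT5G65880 (133.2 on glc, 88.8 on wat as the highest of the 4, fold 1.5), the unnamed 259248_at (244.1 on glc, 162.7 on DOG) and AT2G25355 (103.6 on glc, 69.0 on man). Just outside were AT2G18410 (73.6 on glc, 49.1 on DOG, fold 1.499), 261975_at (108.8 on glc, 72.6 on wat) and 248045_at (1073.3 on glc, 716.3 on wat).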

How the data were processed

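Seedling RNA was measured on 6 arrays, and each title gave the group. The deposited values are linear intensity, 1 signal for each probe set, from MAS5 (per the submitters' processing notes; version not given in the sources used here). The mean of each column, trimmed by 2% at each end, was 100.01, which shows a common scaling that hides changes shared by most transcripts. Of 22810 probe sets, 64 controls were left out. Genes come from the platform's annotation by gene ID, with names from a RefSeq table of TAIR10.1: 13513 probe sets had 1 gene (13436 matched), 503 several and 8730 none here. Members and lists were chosen with earlier results of these data known. Named genes are members with a symbol, the 10 largest folds, members of the ribosome list, those with a second probe set and those at the edge; other names were chosen after their values were seen. The code of the rule was run on simulated data with little noise and a planted rise larger than the fold of most members. That run checks the code only and says nothing of the members. Python 3.11.15, pandas 2.3.3, numpy 2.4.6 and matplotlib 3.10.9 were used. Alternatives were other scalings, a floor, an added constant and other cuts. Promoter motifs and protein lengths were not analysed here. The number of arrays limits the precision.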

Additional observations from a re-analysis of the deposited data

How the results depend on the processing

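The number of members stayed within 1.5 times its value as given under both other scalings (222 with equal medians, 247 with quantile normalization). The same held with 16 added to every signal (183), at signal minimums of 40 and 100, and with no condition on zer. It also held with any of OMG, DOG, man and wat left out (288 to 342). A floor at the 40th percentile could not change the number, because every member read at least 60 on glc. Of the members, 66% were kept with 16 added, 82.3% with equal medians and 90.2% with quantile normalization. The count was 1050 at the looser fold tried, 25 at a fold of 2, and 606 with the mean of the 4 arrays in place of their highest. With 16 added, the median log2 differences of the members were 0.73 (glc minus DOG), 0.87 (glc minus man) and 0.74 (glc minus wat), smaller by construction. The 16 members with zer 1.5-fold above the 4 arrays became 54 at the looser fold and 4 at 2-fold. Of the 29 named genes, 24 kept a fold of 1.5 with 16 added, 25 with equal medians and 26 with quantile normalization. No paired analysis was possible because each group has 1 array. Leaving out replicates was not possible for the same reason, and the motif alternatives were not run. Dim signals limit the 60 members under 100.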
